A study of Mus musculus with 5 samples.

Results

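The genes described here are 10 immediate early genes, which were chosen by symbol: Jun, Junb, Fos, Fosb, Fosl1, Atf3, Egr1, Ier2, Ier3 and Myc. All 10 were among the 32285 genes of each library, and the rule used no measured value. The members and the other gene lists described below were, however, chosen with earlier results of these data known. Mouse EpiSCs (pluripotent stem cells derived from the epiblast after implantation, here a wild-type line on a 129 background) were differentiated for 3 days in N2B27 medium with 1 µM of the Wnt pathway activator CHIR99021 (Chi) and 8 ng/ml BMP4. The 5 conditions added 0, 0.75, 3 or 12 ng/ml FGF2, or 30 nM of the FGF receptor inhibitor AZD4547 (FGFRi), and each was profiled as a single 10x Genomics library of cells detached with Accutase, an enzyme mix. The study used the inhibitor to look at FGF that the cells make themselves, which implies that no FGF2 was added to that culture, although the labels give no dose for it. The study saw extensive cell death at micromolar doses of the inhibitor, and at 30 nM only a mild drop in ERK phosphorylation. It also reported a strong change of the transcriptional state at 30 nM. The comparison asks how the level of these genes depended on FGF dose and what moved with it.

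Immediate early genes are transcribed within minutes of a signal, without new protein synthesis, through transcription factors that already sit in the cell. Growth factors such as FGF act on many of them through the ERK kinase, which activates the partners of serum response factor, while wounding, heat, radiation and the enzymatic separation of cells also switch them on. The JUN, FOS and ATF proteins pair through leucine zippers into the dimeric factor AP-1, so that its makeup depends on which of its subunits a cell makes.

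Promoters are shown for Jun, Junb, Fos and Atf3, the members that encode AP-1 subunits and reached 10 CPM in a library, so that the letters they share can be seen. Each line holds the 250 bases before the RefSeq start site on GRCm38.p6, 5′ to 3′ on the gene's own strand. The regions are chr4:95052223-95052472 (minus strand) for Jun, chr8:84978749-84978998 (minus) for Junb, chr12:85473640-85473889 (plus) for Fos and chr1:191183334-191183583 (minus) for Atf3. The Atf3 window lies inside the annotated span of the gene (chr1:191170296-191218039), and the bases before its annotated 5′ end were not searched. Capitals mark matches, on either strand, to the CRE core TGACG, which is part of the full CRE TGACGTCA, to the CCAAT box and to the heat shock element GAANNTTC.
Jun: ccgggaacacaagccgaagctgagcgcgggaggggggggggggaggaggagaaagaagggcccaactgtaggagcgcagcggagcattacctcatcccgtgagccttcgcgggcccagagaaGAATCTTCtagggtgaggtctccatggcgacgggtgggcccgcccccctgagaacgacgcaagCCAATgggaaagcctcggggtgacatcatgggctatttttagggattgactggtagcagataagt
Junb: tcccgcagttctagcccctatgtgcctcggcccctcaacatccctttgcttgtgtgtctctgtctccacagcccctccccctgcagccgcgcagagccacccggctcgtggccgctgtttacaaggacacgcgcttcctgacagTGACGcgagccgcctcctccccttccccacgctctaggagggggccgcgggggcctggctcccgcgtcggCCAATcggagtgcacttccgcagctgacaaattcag
Fos: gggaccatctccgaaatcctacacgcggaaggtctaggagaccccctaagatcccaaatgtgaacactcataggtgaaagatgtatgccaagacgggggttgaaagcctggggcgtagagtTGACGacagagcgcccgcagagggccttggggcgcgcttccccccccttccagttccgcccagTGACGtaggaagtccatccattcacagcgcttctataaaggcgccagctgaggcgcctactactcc
Atf3: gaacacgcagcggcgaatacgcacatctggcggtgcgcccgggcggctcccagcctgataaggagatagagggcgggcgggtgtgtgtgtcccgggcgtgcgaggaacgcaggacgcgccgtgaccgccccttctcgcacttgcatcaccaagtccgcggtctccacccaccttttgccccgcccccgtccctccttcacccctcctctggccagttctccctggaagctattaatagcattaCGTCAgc
Fos held the CRE core 129 to 125 and 66 to 62 bases before its start, and a TATA box (TATAAA) 33 to 28 bases before it. Junb held the core at 106 to 102 bases, and Atf3 held it on the reverse strand at 7 to 3 bases. Jun had no match to the core, but a heat shock element at 128 to 121 bases and a CCAAT box at 65 to 61 bases, and Junb had a CCAAT box at 36 to 32 bases. A window was found for 6 of the 10 members, and in the other two of these Fosb held a core at 60 to 56 bases and Ier3 held 2 CCAAT boxes. No window was found for Fosl1, Egr1, Ier2 and Myc. The CRE core was thus in 4 of 6 members' windows, against 17.8% of 32851 windows of the same length. The corresponding shares of all windows were 33.8% for CCAAT, 12.4% for TATAAA and 6.69% for the heat shock element. None of the 6 windows held the full CRE, the AP-1 site TGANTCA or the CArG box of serum response factor, which were in 1.55%, 6.75% and 1.47% of all windows. Sites farther from the start, or that differ from these patterns by a letter, were not searched for. A match describes letters only and is no evidence that a factor binds there.

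The deposited tables held 15375 cell barcodes, of which 10653 had at least 2500 detected genes and at most 10% mitochondrial unique molecular identifiers (UMIs), between 1696 and 2725 cells per library. Each library held between 50167816 and 84046746 UMIs, and the median cell between 24408 and 29662. A level is given in CPM, the gene's UMIs over all UMIs of the retained cells in the usual scaling, with an exact Poisson 95% interval. Intervals cover counting error only, as there was 1 library per condition, and no difference between conditions was tested. Of the retained barcode sequences, 7 occurred in more than a single library. The FGF doses were visible in the ERK feedback gene Spry4, at 0.565 CPM with the FGFRi against 5.88, 13.6, 19.7 and 25.6 CPM as FGF2 increased. The pluripotency gene Nanog was at or below 2.03 CPM in every library, and the streak gene T was lowest in the FGFRi-treated library (0.753 CPM) and highest at 12 ng/ml (208 CPM).

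Of the 10 immediate early genes, 7 were highest in the FGFRi-treated cells and lower with each step of FGF2 up to 3 ng/ml: Jun, Junb, Fos, Fosb, Atf3, Ier3 and Egr1. All 7 were higher again at 12 than at 3 ng/ml, by between 1.12-fold for Jun and 2.59-fold for Fosb, which had few UMIs. Summed over the 10 genes, the level was 542 CPM with the FGFRi and 358, 255, 197 and 222 CPM at 0, 0.75, 3 and 12 ng/ml FGF2. Ier2 had its lowest level with the FGFRi, Myc was highest without FGF2, and Fosl1 was scarce, at 0.933 CPM or less in every library.

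**Figure D1:**
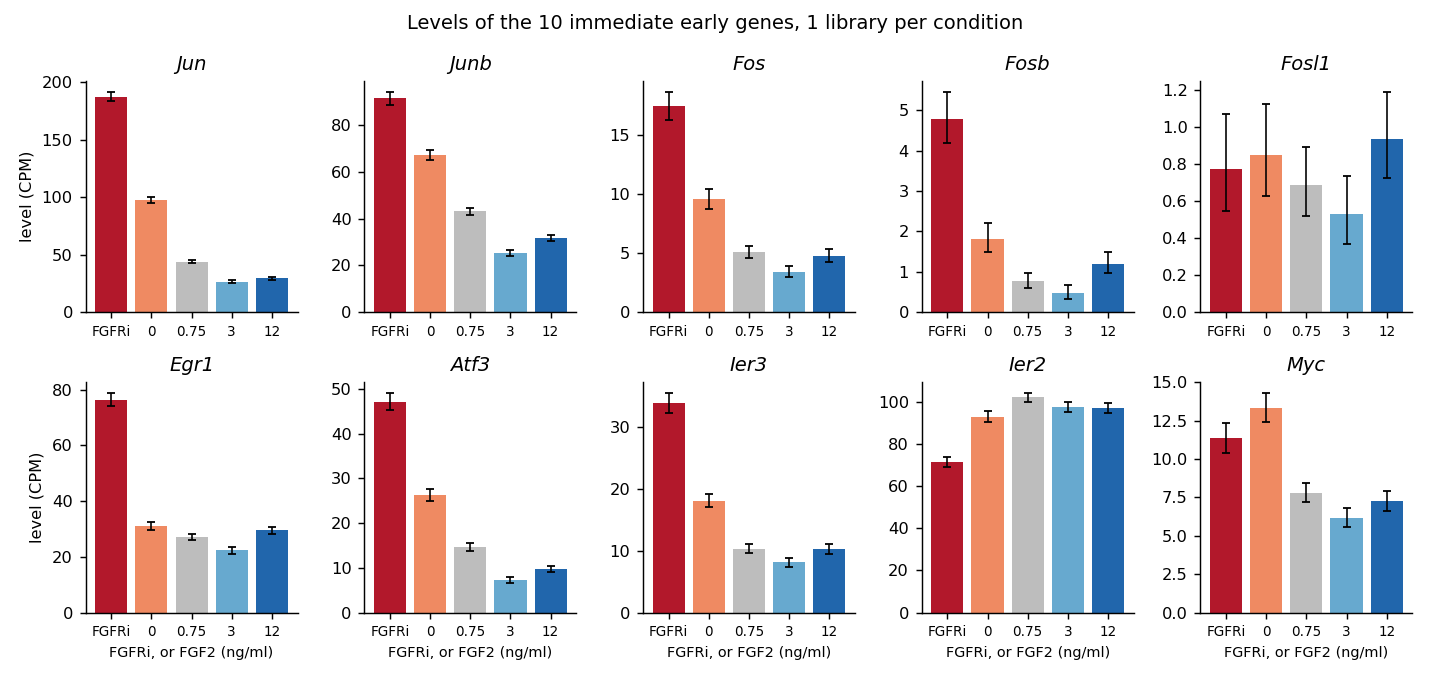
Level of each immediate early gene in CPM (vertical axes, each from 0) in the 5 libraries (horizontal axes), with exact Poisson 95% intervals as bars, 1 library per condition. Jun has 187 CPM in the FGFRi-treated library and 26.2 CPM at 3 ng/ml FGF2, whereas Ier2 is lowest, at 71.6 CPM, in the FGFRi-treated library.

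Jun (chr4:95049034-95052222) encodes the main transactivating subunit of AP-1. Its level was 187 CPM in the FGFRi-treated cells, and 97.3, 43.8, 26.2 and 29.3 CPM at 0, 0.75, 3 and 12 ng/ml FGF2. All 5 levels differed from their neighbors beyond counting error, and the ratio of the highest to the lowest was the widest among the genes above 10 CPM. Its level at 0 ng/ml was 0.519 of that with the FGFRi (95% interval 0.502 to 0.537), and its level at 12 ng/ml 0.301 of that at 0 ng/ml (0.286 to 0.317). From the FGFRi to 12 ng/ml this came to a 6.39-fold lower level.

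Junb (chr8:84974484-84978718) encodes an AP-1 subunit that activates more weakly than JUN and can oppose it. It was at 91.4, 67.2, 43.0, 25.1 and 31.8 CPM in the same order. The order of libraries was that of Jun, with smaller steps at the low end of FGF signaling. The ratio was 0.735 (0.703 to 0.768) from the FGFRi to 0 ng/ml and 0.474 (0.449 to 0.499) from 0 to 12 ng/ml. The gene overlaps Prdx2 on the opposite strand, and Jun overlaps Junos in the same way, whereas Cell Ranger counts only reads on the strand of the gene.

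Fos (chr12:85473890-85477273), the partner of JUN in the classical AP-1 dimer, was counted with between 219 and 833 UMIs per library. Its levels were 17.4 CPM in the FGFRi-treated library, then 9.56, 5.05, 3.39 and 4.76 CPM. Fos was thus higher with the FGFRi than with any dose of FGF2, and its levels at 0.75 and 12 ng/ml did not differ beyond counting error (ratio 1.06, 0.917 to 1.23). The ratio was 0.549 (0.492 to 0.612) from the FGFRi to 0 ng/ml and 0.498 (0.434 to 0.572) from 0 to 12 ng/ml.

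The other FOS family genes were scarce. Fosb (chr7:19302696-19310051), whose product like FOS needs a JUN partner, was at 4.79, 1.81, 0.760, 0.464 and 1.20 CPM. It was highest with the FGFRi and lowest at 3 ng/ml, as Fos was, but at 3 ng/ml only 30 UMIs of it were counted, and at 0.75 ng/ml a single cell held 19.4% of its 62 UMIs. Fosl1 (chr19:5447547-5455946), which encodes FRA-1, a subunit without the activation domains of FOS, was at 0.774, 0.845, 0.687, 0.526 and 0.933 CPM. No neighbors in the order of its 5 levels differed beyond counting error. Its lowest and highest levels, at 3 and 12 ng/ml, did, with a ratio of 1.77 (1.15 to 2.76) from 34 and 66 UMIs.

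Atf3 (chr1:191170296-191218039) encodes a leucine zipper protein that pairs with JUN and is induced by many kinds of stress. It was at 47.2, 26.3, 14.6, 7.18 and 9.72 CPM, so that the FGFRi-treated cells exceeded those at 12 ng/ml by 4.85-fold, the next widest span after Jun among the genes above 10 CPM. The ratio was 0.558 (0.522 to 0.596) from the FGFRi to 0 ng/ml, 0.492 (0.441 to 0.548) from 0.75 to 3 ng/ml and 0.369 (0.337 to 0.405) from 0 to 12 ng/ml. Ier3 (chr17:35821684-35822923), a target of NF-κB and ERK that acts in cell survival, was at 33.8, 18.1, 10.3, 8.11 and 10.2 CPM. Its levels at 0.75 and 12 ng/ml did not differ beyond counting error (ratio 1.01, 0.912 to 1.12), and its ratio from 0 to 12 ng/ml was 0.566 (0.514 to 0.623).

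Egr1, a zinc finger factor and a standard readout of ERK activity, differed in shape from the genes above. Its level was 76.4 CPM in the FGFRi-treated cells, then 31.0, 27.0, 22.3 and 29.5 CPM from the lowest to the highest dose. Most of its range thus lay between the FGFRi and 0 ng/ml, with a ratio of 0.406 (0.383 to 0.430). Its level at 3 ng/ml was 0.825 (0.772 to 0.882) of that at 0.75 ng/ml. Between 0 and 12 ng/ml it did not differ beyond counting error (ratio 0.952, 0.893 to 1.01).

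Ier2 (chr8:84661331-84662852), a nuclear protein induced by serum and growth factors, went the other way. It had 71.6 CPM in the FGFRi-treated library and 93.1, 102, 97.5 and 97.2 CPM in the others, the ratio from the FGFRi to 0 ng/ml being 1.30 (1.25 to 1.36). Its levels at 3 and 12 ng/ml did not differ beyond counting error. Myc (chr15:61985391-61990374), the growth-promoting factor, was at 11.4, 13.3, 7.81, 6.18 and 7.26 CPM. Its level was 1.18-fold (1.05 to 1.31) higher at 0 ng/ml than with the FGFRi, while its level at 12 ng/ml was 0.544 (0.486 to 0.610) of that at 0 ng/ml. Over its relatives in the MYC network, 8 of 10 genes reached 10 CPM in any library. Mycn, the family member of the embryo, had the opposite course to Myc from 0 to 3 ng/ml, with 16.1 CPM in the FGFRi-treated cells, 35.4 CPM without FGF2, 53.7 CPM at 3 ng/ml and 54.2 CPM at the highest dose. Mxd4, which encodes an antagonist of MYC, was at 46.8 CPM in the FGFRi-treated cells, 18.1 CPM without FGF2 and 8.68 CPM at the highest dose, and Mycl was at 5.51 CPM at 0 and 13.9 CPM at 12 ng/ml.

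For counts, a rule of size was used, under which a gene needed 10 CPM or more in any of the libraries compared and a difference of 2-fold or more. Between the FGFRi and 0 ng/ml, 1 of 8 members at that level passed it as lower without the inhibitor (Egr1), against 5.38% of all 8445 genes. At a ratio of 1.5 it was 5 of 8 (Egr1, Jun, Ier3, Fos and Atf3), against 12.4%. From 0 to 0.75 ng/ml, 1 of 7 passed as lower (Jun), against 1.41%, and 5 at a ratio of 1.5, against 4.13%. From 0.75 to 3 ng/ml, 1 of 6 passed as lower (Atf3), against 0.523%, and 3 at a ratio of 1.5 (Jun, Junb and Atf3), against 2.18%. From 3 to 12 ng/ml none of 5 passed, against 0.0631% of all genes as higher and 0.0252% as lower. Across the whole range of doses, from 0 to 12 ng/ml, 3 of 7 passed as lower (Jun, Junb and Atf3), against 4.04%, and 5 at a ratio of 1.5 (with Ier3 and Myc), against 8.85%. Between the FGFRi and 12 ng/ml 6 of 8 passed as lower (Jun, Junb, Fos, Atf3, Ier3 and Egr1), against 12.7%, and 7 at a ratio of 1.5 (with Myc), against 21.9%. No member passed as higher by the 2-fold rule in any of these 6 comparisons, against 2.62%, 0.308%, 0.336%, 0.0631%, 1.87% and 7.72% of all genes in the order given, and several of them share a library and are thus not independent of each other.

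For the 8 members that reached 10 CPM anywhere, the median log2 ratio was -0.85 from the FGFRi to 0 ng/ml. It was -0.79, -0.46 and 0.34 for the steps from 0 to 0.75, from 0.75 to 3 and from 3 to 12 ng/ml, and -0.94 from 0 to 12 ng/ml. The median of all genes at this level lay between -0.0029 and 0.014. The small upward step from 3 to 12 ng/ml was seen in 7 of the 8 members, with ratios from 1.12 for Jun to 1.40 for Fos, and Ier2 at 0.997 (0.963 to 1.03) was the exception. The calls that rest on a ratio close to 2 changed with the handling of cells. Without the cells above 2 times the median UMIs of their library, 3 members passed from the FGFRi to 0 ng/ml, 2 from 0 to 0.75 ng/ml, and none from 0.75 to 3 ng/ml. The share of all genes that passed was not computed without those cells.

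At the level of single cells, the share of cells with at least 1 UMI was taken after each cell had been thinned to 10000 UMIs, and it put the libraries in the same order as the CPM for all members but Egr1 and Fosl1. Thinned to 5000 UMIs, the order also differed for Jun, Ier2, Ier3 and Myc. Between 9 and 39 shallower cells per library were left out, with the largest number in the FGFRi-treated library. For Jun the share was 70.6% with the FGFRi (exact binomial 95% interval 68.4 to 72.8) and 42.8%, 24.8%, 16.3% and 18.7% along the FGF2 doses. Without thinning, the shares were 84.2%, 64.1%, 44.7%, 34.1% and 36.6%. No cell type is known to lack these genes, so the part of free RNA in these shares could not be measured. The class of cells by Cdh1 and Cdh2 UMIs with the lowest share, which can differ between genes and libraries, is given for comparison only. Its share for Jun was 63.9%, 30.4%, 15.3%, 13.1% and 15.3%, at a median of between 25001 and 30228 UMIs per cell.

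**Figure D2:**
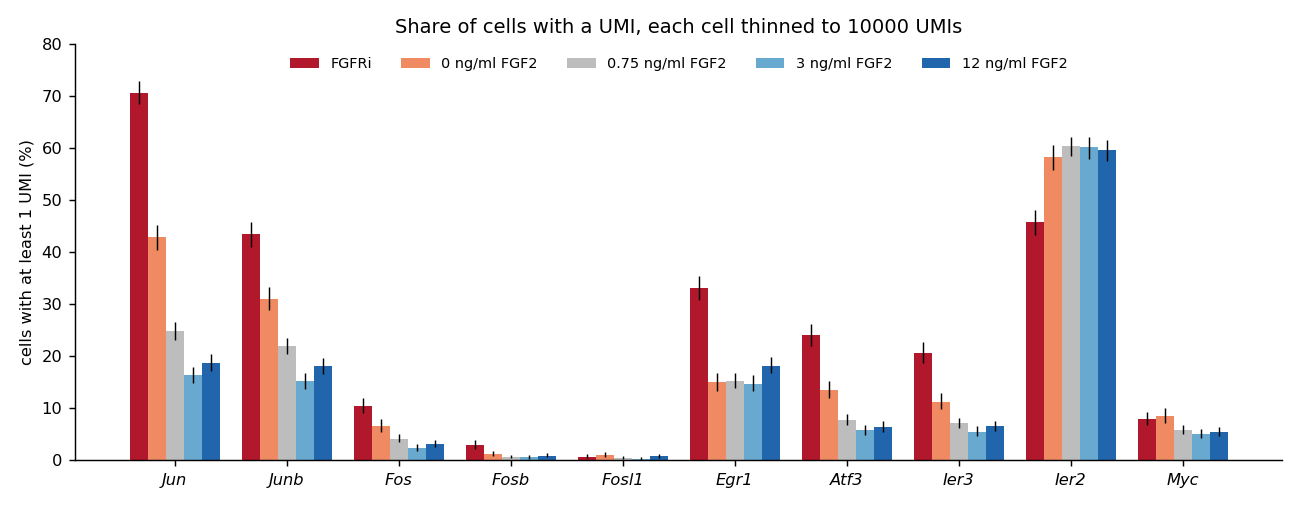
Share of cells with at least 1 UMI of each gene (vertical axis, percent), with each cell thinned to 10000 UMIs and exact binomial 95% intervals, for the 5 libraries (colors). The Jun share falls from 70.6% with the FGFRi to 16.3% at 3 ng/ml FGF2, and the Ier2 share is lowest, at 45.7%, with the FGFRi.

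Junb UMIs were found in 43.4% of FGFRi-treated cells and in 31.0%, 21.9%, 15.1% and 18.1% of cells along the doses, and Atf3 UMIs in 23.9%, 13.5%, 7.76%, 5.67% and 6.38%. Ier3 shares were 20.6%, 11.2%, 7.06%, 5.44% and 6.51%. Fos, the gene best known from dissociated tissue, was found in 10.4%, 6.49%, 4.10%, 2.32% and 3.05% of cells. In the class with the lowest share, these values were 33.2%, 14.6%, 7.84%, 9.34% and 14.8% for Junb and 19.4%, 5.95%, 4.47%, 4.03% and 4.09% for Atf3. They were 19.5%, 5.26%, 3.05%, 2.33% and 3.93% for Ier3 and 8.41%, 4.12%, 3.50%, 1.83% and 2.33% for Fos, at class medians between 24142 and 30228 UMIs per cell. The lowest class thus differed between libraries in the same direction, from the FGFRi to 0.75 ng/ml, for all 4 genes. For Egr1 the share was 33% with the FGFRi, and between 14.7% and 18.1% in the other libraries, where the intervals at 0, 0.75 and 3 ng/ml overlap, and in the lowest class it was 28.3% with the FGFRi and between 11.1% and 14.1% elsewhere. Ier2 was found in 45.7% of FGFRi-treated cells and in 58.2% to 60.3% of the others. Myc shares lay between 5.01% and 8.46%, Fosb shares at most at 2.83% and Fosl1 shares at most at 0.893%.

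Several members were concentrated in few cells. Of the Egr1 UMIs at this depth, 41.3% lay in 5% of the FGFRi-treated cells and 59.4% in 5% of the cells at 0 ng/ml, whereas for Ier2 these shares were 27.2% and 20.7%. A single FGFRi-treated cell held 22 thinned UMIs of Egr1, and another cell, without thinning, 46 of the 833 Fos UMIs of that library. At 12 ng/ml 1 cell held 23 of 337 Fos UMIs, and without it the level there was 4.44 CPM in place of 4.76 CPM. The variance of thinned Fos UMIs over their mean was 3.54 with the FGFRi and 3.52 at 12 ng/ml, against between 1.49 and 1.52 in the other libraries, where a value of 1 would be counting noise. The number of the 10 genes detected per cell had a median of 2 with the FGFRi and at 0 ng/ml and of 1 at the other doses. Cells with 6 or more of the genes made up 4.39% of the FGFRi-treated library and 1.55%, 0.628%, 0.189% and 0.626% along the doses. Cells with none of them were 6.38%, 15.3%, 20.8%, 23.3% and 21.9%.

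Other genes of the early response were mostly lower with more FGF as well. Of 33 further immediate early genes, 21 reached 10 CPM in any library. At 0 ng/ml, relative to the FGFRi, 6 passed the rule as lower, against 5.38% of all genes, and none as higher, against 2.62%. The median log2 ratio was -0.56, with 5 of 21 genes at higher values. From 0 to 12 ng/ml 8 of the 19 at that level passed as lower, against 4.04%, and none as higher, against 1.87%, with a median of -0.89. Fosl2, which encodes FRA-2, had 45.4 CPM in the FGFRi-treated library and 15.8, 4.70, 2.52 and 2.81 CPM with increasing FGF2. Ccn2, a secreted matricellular protein, was at 31.0, 10.1, 1.74, 0.635 and 2.08 CPM, and the growth arrest gene Gadd45g at 78.5, 32.3, 16, 10.1 and 7.22 CPM. Gadd45b, its close relative, was at 67.3 and 27.4 CPM in the first pair of libraries. Dusp1, an early phosphatase that limits MAP kinases, differed less, with 21.8, 21.0, 15.8, 12.1 and 13 CPM.

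**Figure D3:**
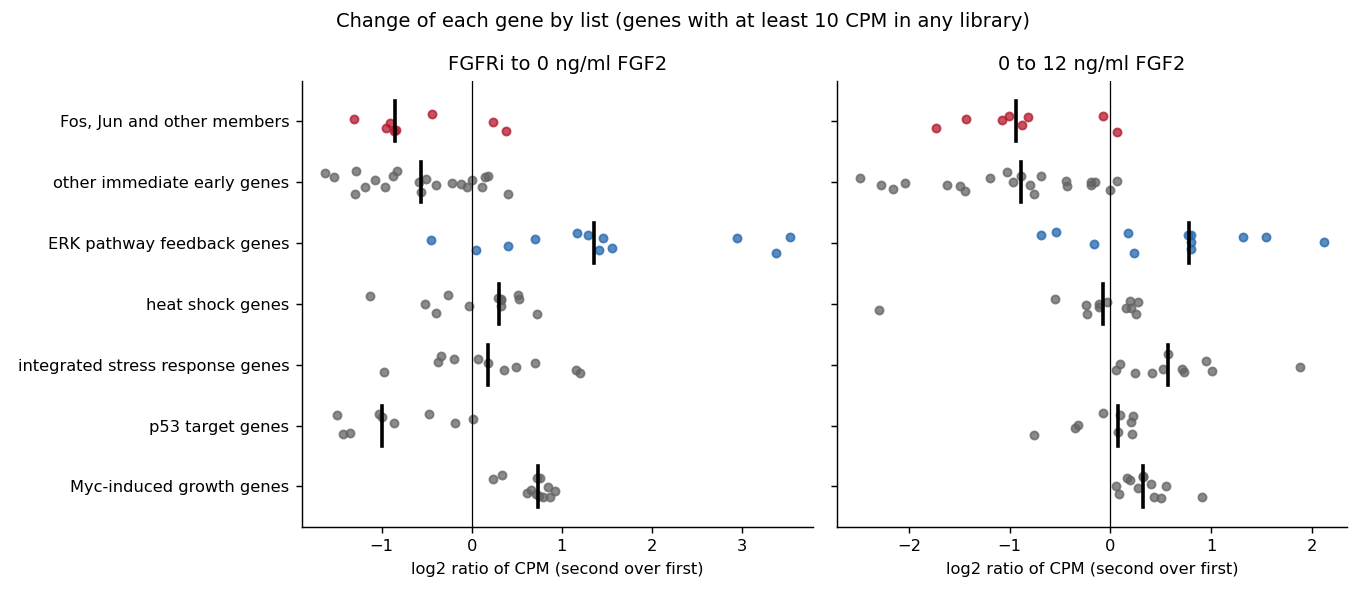
Log2 ratio of CPM (horizontal axes, second over first library) for the genes of 7 lists with at least 10 CPM in any library, 1 point per gene, with a black bar at the median of each list. The medians of the members are -0.85 from the FGFRi to 0 ng/ml and -0.94 from 0 to 12 ng/ml, and those of the ERK feedback genes 1.35 and 0.78, on the other side of 0.

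The feedback genes of the ERK pathway, many of which are transcribed in response to FGF receptor activity, differed mostly in the opposite direction. All 12 reached 10 CPM in any library, and 11 were higher at 0 ng/ml than with the FGFRi, and 9 higher at 12 than at 0 ng/ml. At 0 ng/ml, relative to the FGFRi, 7 of 11 passed the rule as higher and none as lower, against 2.62% and 5.38% of all genes. The median log2 ratio was 1.35. From 0 to 12 ng/ml 3 of 12 passed as higher and none as lower, against 1.87% and 4.04%, with a median of 0.78. Etv4, an ETS factor, had 1.38 CPM in the FGFRi-treated library and 15.9, 26.5, 40.5 and 46.4 CPM with increasing FGF2, and its relative Etv5 had 2.45, 18.9, 31.5, 37.1 and 32.1 CPM. The ERK phosphatase gene Dusp6 was at 8.28, 24.4, 35.9, 38.1 and 42.6 CPM, and Dusp4, another MAP kinase phosphatase, at 9.07 CPM in the FGFRi-treated and 60.4 CPM in the 12 ng/ml library. The exceptions, named after their values were seen, were Phlda1, at 105, 108, 74.8, 56.4 and 67.4 CPM, Dusp5, at 22.9, 16.7, 13.9, 10.9 and 11.5 CPM, and Spry1, which was lower at 12 than at 0 ng/ml (11.1 against 12.4 CPM).

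Within libraries, the relation to the feedback genes depended on which of them were summed. Cells were split into terciles by the summed share of all 12 feedback genes. In the FGFRi-treated library, the 10 immediate early genes together were then at 370 CPM in the lowest and 722 CPM in the highest tercile, a ratio of 1.95 (1.89 to 2.02). The ratio was 1.66 (1.60 to 1.72), 1.42 (1.38 to 1.47), 1.33 (1.27 to 1.38) and 1.52 (1.47 to 1.59) as FGF2 increased. Phlda1 and Dusp5, whose levels were higher in the FGFRi-treated and 0 ng/ml libraries than in the others, made up much of the sum that sorted the cells. Without them the other 10 feedback genes held 47.5% of it in the FGFRi-treated library, and 67.6%, 80.5%, 86.5% and 84.9% in the others. No UMI of these 10 genes was found in 16.2% of FGFRi-treated cells and in 4.89%, 0.844%, 0.0471% and 0.166% along the doses. The FGFRi-treated cells were thus sorted least finely. Split by these 10 genes alone, an alternative chosen after seeing the data, the ratio was 1.32 (1.28 to 1.36) in the FGFRi-treated library. It was below 1 at 0 ng/ml (0.719, 0.693 to 0.746) and 0.75 ng/ml (0.729, 0.705 to 0.754), and near 1 at 3 ng/ml (0.979, 0.938 to 1.02) and 12 ng/ml (1.04, 0.996 to 1.08). The direction of the relation thus rested on Phlda1 and Dusp5 in the libraries at 0 and 0.75 ng/ml. At 3 and 12 ng/ml Ier2 alone held 97.5 of 197 and 97.2 of 222 CPM of the summed members, with ratios of 0.952 and 1.00. The sums near 1 there covered members that differed in direction, as Jun had 1.21 in both libraries while Atf3 was below 1.

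Single members changed likewise. Atf3 had ratios of 3.41, 2.43, 2.55, 1.69 and 3.12 in the 5 libraries with all 12 feedback genes, but 1.09, 0.300, 0.314, 0.700 and 0.785 without Phlda1 and Dusp5, of which the first has an interval (0.977 to 1.21) that holds 1. For Ier3 the ratios were 3.77, 3.35, 2.35, 2.01 and 2.97 with them, and 1.38, 0.454, 0.611, 0.838 and 0.836 without, the last pair with intervals that hold 1. For Egr1 in the FGFRi-treated library the ratio was similar in both splits, at 2.07 and 1.87. Myc at 0 ng/ml was below 1 in both (0.431 and 0.386), and at 12 ng/ml above 1 in both (2.54 and 1.72). Cells of the highest tercile of the 12 genes were also deeper, with a median of 26966 against 21160 UMIs in the FGFRi-treated library.

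**Figure D4:**
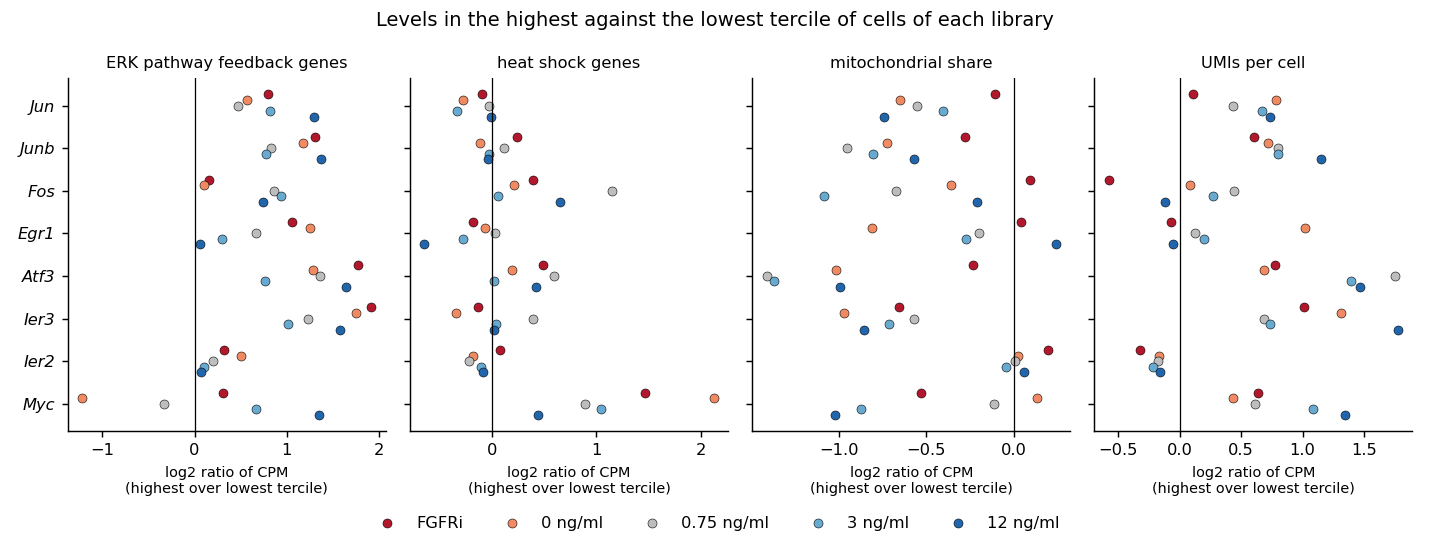
Log2 ratio of CPM between the highest and the lowest tercile of cells of each library (horizontal axes) for 8 immediate early genes, with cells split by ERK feedback genes, heat shock genes, mitochondrial share and UMIs per cell. Split by all 12 ERK feedback genes, Ier3 lies between ratios of 2.01 and 3.77 (between 0.454 and 1.38 without Phlda1 and Dusp5, which is not plotted), and split by heat shock genes Myc lies between 1.36 and 4.35 while Jun stays between 0.792 and 0.992.

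Enzymatic detachment and handling stress can induce immediate early genes together with heat shock genes, so the latter were examined in the same way. Of 14 heat shock genes 12 reached 10 CPM in any library. Relative to the FGFRi, their median log2 ratio at 0 ng/ml was 0.30, and from 0 to 12 ng/ml -0.07, and 1 gene, Hspb1, passed the rule as lower in each, against 5.38% and 4.04% of all genes. Hspb1, a small heat shock protein that binds actin, was at 750, 342, 150, 54.3 and 69.6 CPM, in the order of Jun. The most strongly heat-inducible genes, Hspa1a and Hspa1b, were below 10 CPM in every library. Hspa1a was at 2.26, 1.00, 0.503, 0.217 and 0.495 CPM and Hspa1b at 3.18, 1.11, 0.993, 0.898 and 0.777 CPM, both again highest with the FGFRi. Bag3, a cochaperone, was at 31.7, 24.1, 16.4, 15.1 and 16.4 CPM. Dnajb1 was at 37.6, 31.3, 28.5, 25.4 and 26.6 CPM, and Dnajb4 at 20.3, 14.2, 12.6, 13.7 and 13.2 CPM. The chaperone genes Hspd1 and Hsph1 were lower with the FGFRi than at 0 ng/ml (522 against 860 CPM and 44.4 against 64.0 CPM). The part of these changes in the levels of the immediate early genes was not tested.

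Within libraries the sum of heat shock genes is mostly that of abundant constitutive chaperones, with Hsp90ab1 alone at 6093 of 11873 CPM in the FGFRi-treated library. Whether handling had a part in the levels was not tested. Between the highest and the lowest tercile of heat shock genes, the ratio of all 10 together was 1.05 (1.02 to 1.09) with the FGFRi and 0.958, 1.03, 0.935 and 0.949 along the doses. The heat-inducible Hspa1a, Hspa1b, Dnajb1, Dnajb4, Bag3 and Hsph1, chosen after seeing the data, were between 125 and 139 CPM in sum. All but Hsph1 were highest with the FGFRi, while Hsph1 was lowest there, at 44.4 CPM, and highest at 3 ng/ml, at 77.5 CPM. At 3 ng/ml Hsph1 alone thus held 77.5 of the 133 CPM in sum. Between 5.41% and 8.82% of the cells of a library had no UMI of the heat-inducible genes, which limits how finely these genes sort cells. Split by only these genes, the ratio of all 10 together was 1.06 (1.03 to 1.09), 1.06 (1.03 to 1.10), 0.945 (0.914 to 0.978), 1.02 (0.981 to 1.07) and 1.01 (0.966 to 1.05). Single members differed in this split. Fos had 1.05, 1.66, 1.41, 0.725 and 0.928, with intervals above 1 at 0 (1.33 to 2.08) and 0.75 ng/ml (1.08 to 1.84) only. Myc had 1.47, 2.72, 1.70, 2.36 and 1.31, and Ier2 0.858, 0.850, 0.889, 0.924 and 0.920. For Atf3, by all 14 genes, the ratio lay between 1.02 and 1.51, and for Jun between 0.792 and 0.992. Myc, by the same 14 genes, had 2.76, 4.35, 1.86, 2.07 and 1.36. In the lowest tercile of heat shock genes, the level at 12 ng/ml relative to 0 ng/ml was 0.285 for Jun, 0.500 for Junb and 0.370 for Atf3, and that at 0 ng/ml relative to the FGFRi was 0.534 for Jun and 0.388 for Egr1. The values over all cells were 0.301, 0.474, 0.369, 0.519 and 0.406. Egr1 from 0 to 12 ng/ml had a ratio of 1.20 in the lowest and 0.804 in the highest tercile. For Myc, the ratio from 0 to 12 ng/ml was 1.11 in the lowest tercile and 0.345 in the highest.

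A high mitochondrial share can mark damaged cells, but the cells retained here all lay at or below 10%. Among them, the ratio of all 10 between the highest and the lowest tercile of mitochondrial share was 0.914 with the FGFRi and 0.707, 0.771, 0.792 and 0.847 along the doses, and it was below 1 in every library for Jun, Junb, Atf3 and Ier3. The median mitochondrial share per library lay between 3.96% and 4.35%. By UMIs per cell, the highest tercile exceeded the lowest by ratios between 1.15 and 1.42. The 687 to 1064 barcodes per library with under 2500 genes had Jun at 142, 69.6, 37.0, 25.1 and 21.4 CPM, against 187, 97.3, 43.8, 26.2 and 29.3 CPM in the retained cells. With mitochondrial UMIs left out of the total the direction was the other one, at 240, 119, 66.5, 40.4 and 38.9 CPM against 196, 102, 45.6, 27.3 and 30.6 CPM. The 24 to 40 barcodes per library with enough genes but over 10% mitochondrial UMIs had Jun at 137, 109, 46.7, 25.1 and 50.2 CPM, from between 11 and 60 UMIs.

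The cultures also differed in their mix of cells. E-cadherin (Cdh1) marks epithelial and N-cadherin (Cdh2) mesodermal cells, and cells were classed by which of them had a UMI at 10000 UMIs. Cells with Cdh1 only made up 32.9% of the FGFRi-treated library and 39.5%, 33.5%, 18.7% and 14.5% along the doses, and cells with Cdh2 only 34.7%, 26.0%, 33.9%, 48.6% and 53%. In the 4 libraries without the FGFRi, Jun, Junb, Atf3 and Ier3 were each higher in the Cdh1-only cells. For Junb, the ratio of Cdh1-only to Cdh2-only cells was 1.96 (1.72 to 2.23) with the FGFRi and 3.53, 7.35, 4.28 and 3.49 along the doses. For Ier3 it was 0.981 (0.786 to 1.22) with the FGFRi and 3.00, 4.42, 7.18 and 4.93 along the doses. Jun in the FGFRi-treated library was higher in the Cdh2-only cells (221 against 173 CPM), as was Egr1 at 12 ng/ml (34.6 against 21.6 CPM). Ier2 had ratios between 1.04 and 1.5.

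**Figure D5:**
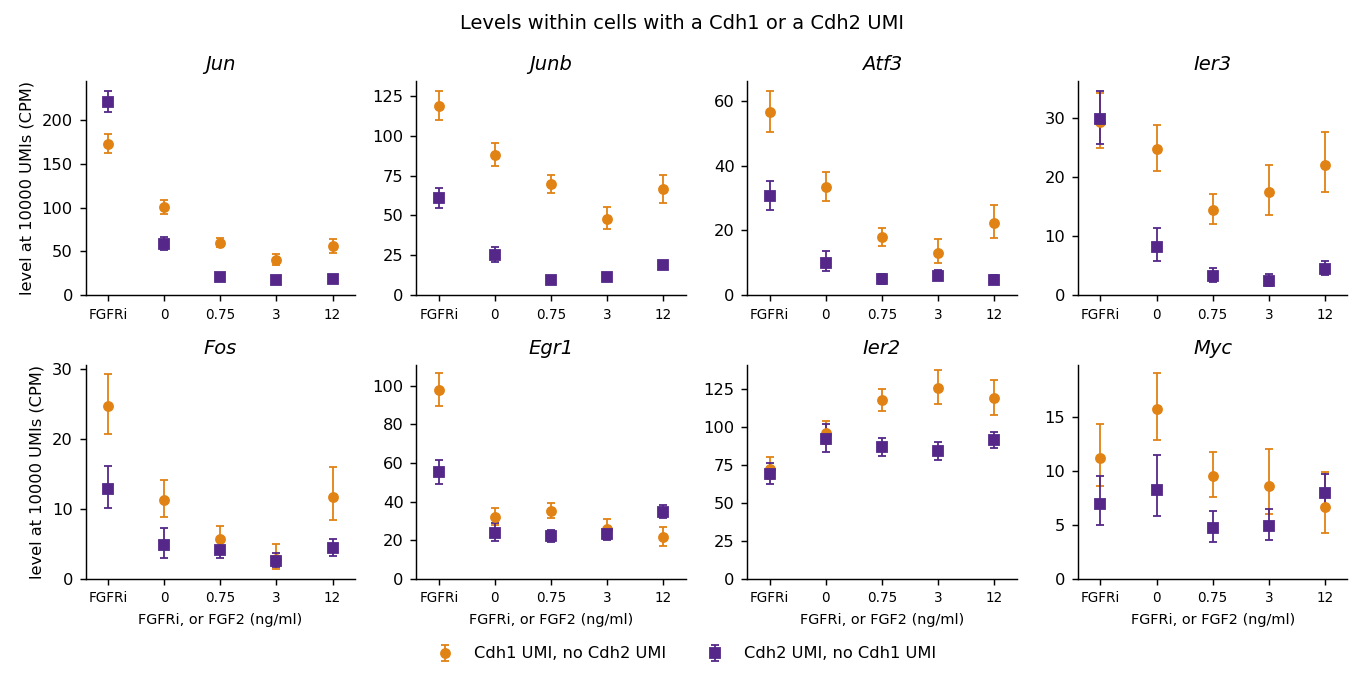
Level in CPM (vertical axes, each from 0, all cells thinned to 10000 UMIs) of 8 immediate early genes in cells with a Cdh1 but no Cdh2 UMI (circles) and with a Cdh2 but no Cdh1 UMI (squares), with exact Poisson 95% intervals, in the 5 libraries. Junb is higher in the Cdh1-only cells of every library, and Jun in all but the FGFRi-treated library, where it is at 221 CPM in the Cdh2-only and 173 CPM in the Cdh1-only cells.

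Within classes, some of the ratios between libraries lay farther from 1 than over all cells, some about as far and others nearer. At 0 ng/ml relative to the FGFRi, Jun had a ratio of 0.581 (0.526 to 0.643) in Cdh1-only and 0.266 (0.232 to 0.304) in Cdh2-only cells, and Egr1 of 0.327 (0.278 to 0.384) and 0.431 (0.342 to 0.540). Ier3 had 0.276 (0.187 to 0.397) in the Cdh2-only cells and 0.400 (0.280 to 0.563) in cells with neither gene, but 0.844 (0.675 to 1.06) in the Cdh1-only cells. From 0 to 12 ng/ml, Jun had 0.557 (0.472 to 0.654) in Cdh1-only and 0.321 (0.268 to 0.384) in Cdh2-only cells, and Atf3 0.672 (0.513 to 0.874) and 0.469 (0.312 to 0.708). Junb had 0.755 (0.645 to 0.881) and 0.763 (0.606 to 0.966) in these classes, nearer to 1 than the 0.474 over all cells. In cells with neither gene, however, Junb had 0.500 (0.400 to 0.624), and in cells with both 0.270 (0.194 to 0.372). Fos had 1.04 (0.694 to 1.54) in Cdh1-only and 0.917 (0.546 to 1.59) in Cdh2-only cells, where a difference was not detectable at this depth. In cells with neither gene Fos had 0.344 (0.174 to 0.649). In the Cdh1-only cells at 12 ng/ml, 12 of its UMIs were in 1 cell, without which the level was 8.36 CPM in place of 11.8 CPM. Egr1 had 0.674 (0.511 to 0.881) and 1.45 (1.17 to 1.82), in opposite directions. The part of the mix of cells in the remaining differences was not tested.

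Markers of the other cell types in the cultures moved as follows. Their lists were chosen with earlier results of these data known, so their counts beside the shares of all genes are a description only. All 7 mesenchyme markers were lower at 0 ng/ml than with the FGFRi by the rule of size, against 5.38% of all genes, with a median log2 ratio of -2, and 4 of 5 at that level were lower at 12 than at 0 ng/ml, against 4.04%, with a median of -2.28. Their summed level was 5182 CPM in the FGFRi-treated cells and 1328, 420, 284 and 349 CPM in the others, in the order of Jun and with the same low at 3 ng/ml. Acta2 had 1008 CPM in the FGFRi-treated and 15.7 CPM in the 12 ng/ml library, and Tagln 1915 and 42 CPM. Of the 6 surface ectoderm markers, 1 passed as higher and none as lower from the FGFRi to 0 ng/ml, against 2.62% and 5.38% of all genes. From 0 to 12 ng/ml 5 passed as lower, against 4.04%. The summed level of these markers was 2759, 2423, 1746, 961 and 917 CPM. The 5 streak and the 5 presomitic mesoderm genes above 10 CPM all passed as higher from 0 to 12 ng/ml, against 1.87%. The 6 endoderm markers did not reach 10 CPM in any library, and Cer1 and Ttr were at or near 0. Of neurectoderm markers only Nes, at 151 CPM in the FGFRi-treated and 35.7 CPM in the 12 ng/ml library, and of hemato-endothelial markers only Runx1 and Lmo2 reached that level. Whether the mesenchyme or the ectoderm cells account for the levels of the immediate early genes was not tested.

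The p53 targets, the integrated stress response and growth genes induced by MYC took other courses. Of 9 p53 targets above 10 CPM, 4 passed as lower from the FGFRi to 0 ng/ml, against 5.38% of all genes (median log2 ratio -0.99), with the cell cycle inhibitor Cdkn1a at 330 and 117 CPM. None of 8 passed from 0 to 12 ng/ml (median 0.07), against 1.87% of all genes as higher and 4.04% as lower. Of the integrated stress response genes, to which ATF3 responds, 1 of 9 passed as higher from the FGFRi to 0 ng/ml, against 2.62% (median 0.18), and 2 of 10 from 0 to 12 ng/ml, against 1.87% (median 0.57), among them Chac1 at 3.84 and 14.2 CPM. Of the 11 at 10 CPM in any library, 4 had lower values at 0 ng/ml than with the FGFRi, as Atf3 had, among them Ddit4 (25.4 against 49.9 CPM), and all 11 had higher values at 12 than at 0 ng/ml. None of the 12 MYC-induced growth genes passed in either comparison, against 2.62% and 1.87% of all genes as higher and 5.38% and 4.04% as lower. All 12 were higher in each (medians 0.74 and 0.32), with the nucleolar gene Nolc1 at 101 CPM in the FGFRi-treated cells, 191 CPM without FGF2 and 271 CPM at the highest dose.

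Across cells within a library, the genes most like each member were found by the mean Pearson correlation over the 5 libraries of log-transformed thinned UMIs, among 7073 genes with at least 10 CPM in every library. Such correlations share the depth and the mix of cells of the library and are given as a description. Jun was most like Tmsb4x, an actin-binding thymosin (0.29), Klf6 (0.29) and Cald1, an actin-binding protein of contractile cells (0.28). Junb was most like the epithelial keratins Krt18 (0.36) and Krt8 (0.34) and Tmsb4x (0.34). Atf3 was most like Ccn1, a secreted matricellular protein (0.31), the cytokine receptor gene Tnfrsf12a (0.30) and Tagln (0.29), and Ier3 like Tmsb4x (0.28), Tnfrsf12a (0.27) and Tagln (0.25). Egr1 was most like Junb (0.21), Ccn1 (0.14) and Ier2 (0.14), Fos like Egr1 (0.13), Junb (0.13) and Ccn1 (0.12), and Ier2 like Egr1 (0.14), Junb (0.13) and Cldn6 (0.09). Myc shared none of these neighbors, being most like Fgfbp1 (0.19), Car2 (0.19) and Peg10 (0.15). For the scarce genes, the highest values were 0.12 for Fosl1 with Tnfrsf12a and 0.08 for Fosb with Jun.

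Many of these neighbors had the same course along FGF dose. Klf6, itself an early zinc finger gene, had 236 CPM in the FGFRi-treated cells and 133, 62.9, 33 and 32.4 CPM with increasing FGF2, and Ccn1 had 171, 75, 29.4, 18.5 and 24.4 CPM. Tmsb4x was at 7042, 2200, 832, 499 and 646 CPM and Tnfrsf12a at 217, 112, 61.1, 38.6 and 49.4 CPM. Of the members themselves, the pair with the highest mean correlation was Junb and Atf3 (0.22, from 0.145 to 0.282 over the libraries), followed by Junb with Egr1 (0.21) and with Jun (0.21). Fos and Fosb had 0.16, between -0.01 and 0.31. With the sum of the other immediate early genes and with that of the heat shock genes, the mean correlation was 0.38 and 0.02 for Junb and 0.32 and -0.0045 for Jun, but 0.09 and 0.11 for Myc.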

How the data were processed

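The authors deposited raw UMI counts per gene and barcode for each of 5 libraries, as Cell Ranger called them, aligned to mm10. The matrix headers name Cell Ranger 5.0.1 and the methods an earlier version. The deposited counts are not normalized and hold every barcode that was called a cell. Barcodes with under 2500 genes or over 10% mitochondrial UMIs were left out here, which retained 10653 of 15375 barcodes. Members were matched by symbol, and positions came from the GENCODE annotation of GRCm38. Levels are CPM over retained cells with exact Poisson intervals, ratios have exact conditional intervals, and shares have exact Clopper-Pearson intervals, all at 95%. For shares, classes and correlations each cell was thinned to 10000 UMIs. Splits of cells were by terciles of a summed share. With 1 library per condition no test was run and no p-value computed. Genes were called at 10 CPM in any of the libraries compared and a 2-fold difference.

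Named were all 10 members, from each other list up to 3 genes with the largest ratio from the FGFRi to 0 or from 0 to 12 ng/ml FGF2 at 10 CPM, the 3 genes most correlated with each member, and marker genes. Members and lists were chosen with earlier results of these data known. No doublet caller was run, and cells of more than 2 times the median UMIs were left out as an alternative. In data simulated at these depths, all 200 genes changed 3-fold were called in each of 5 comparisons of 32285 genes and no unchanged gene was. The simulation held counting noise only, and its changed genes lay above the limit of 10 CPM. It thus checks the computation and does not cover ratios near 2-fold or differences between cells or cultures. Python 3.11.15, NumPy 2.4.6, SciPy 1.17.1, pandas 2.3.3, Matplotlib 3.10.9, R 4.3.3 and edgeR 4.0.16 (TMM factors only) were used.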

Additional observations from a re-analysis of the deposited data

How the results depend on the processing

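No paired analysis was possible because each condition had 1 library and no result came from a test. The alternatives were a limit of 5% mitochondrial UMIs, all deposited barcodes, TMM factors (0.993 to 1.01), the same weight for every cell, no cells above 2 times the median UMIs and no cells in the highest tercile of heat shock genes. Other limits on CPM and on the ratio, a pseudocount of 1 and thinning to 5000 UMIs were also tried. Under the first 6 of these, of 300 ratios of members recomputed, 260 stayed within the counting interval of the value reported, 39 moved in size, and 1 reversed, as the log2 ratio of Myc from the FGFRi to 0 ng/ml FGF2 was -0.24 without the highest tercile of heat shock genes.

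The number of members past the rule of size moved as follows, with the share of all genes computed for the main setting and at a ratio of 1.5 only. From the FGFRi to 0 ng/ml it was 1, but 3 with the same weight for every cell, 3 without cells above 2 times the median UMIs, 2 with no minimum CPM and 5 at a ratio of 1.5. From 0 to 0.75 ng/ml it was 1, but 2, 2, 2 and 5 under these settings, and 3 without the highest tercile of heat shock genes. From 0.75 to 3 ng/ml it was 1, but 0 with the same weight for every cell, without the deep cells, without the heat shock tercile and at 50 CPM, and 3 at a ratio of 1.5. From 3 to 12 ng/ml it was 0, but 1 (Fosb, higher) with no minimum. From 0 to 12 ng/ml it was 3, but 5 at a ratio of 1.5. With no minimum CPM Fos also passed there, at 2.01-fold. At 50 CPM Atf3, with 26.3 CPM at 0 ng/ml, no longer counted. The median log2 ratio stayed between the median lower and the median upper counting limit of the members in 33 of 35 alternatives. It became -1.12 from 0 to 0.75 ng/ml and -1.16 from 0 to 12 ng/ml without the heat shock tercile. Of 2 alternatives chosen after seeing the data, the split of cells by ERK feedback genes without Phlda1 and Dusp5 reversed the ratio of the summed members between terciles to 0.719 and 0.729 at 0 and 0.75 ng/ml. At 3 ng/ml that ratio became 0.979, with an interval (0.938 to 1.02) that holds 1. The split by heat-inducible genes turned small ratios to 1.06, 1.02 and 1.01 at 0, 3 and 12 ng/ml. At 0.75 ng/ml it went the other way, from above 1 to 0.945 (0.914 to 0.978). The cause of these shifts was not tested. Depth limits Fosl1 and Fosb, and the single library per condition limits every comparison to these cultures.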
